A study of Mus musculus with 6 samples.

Results

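Eph receptors and their ephrin ligands were followed across presomitic mesoderm from Dll3 mutant and wild-type mouse embryos. The family members considered were 10 genes, comprising the A-class receptors Epha1, Epha2, Epha3, Epha4 and Epha7, the B-class receptors Ephb2 and Ephb3, the A-class ligand Efna1 and the B-class ligands Efnb1 and Efnb2. Every probe set that the platform annotation assigns to exactly 1 of these symbols was taken, which gave 22 of the 22626 non-control probe sets on the array. They read 9 of the 10 genes, and Ephb2, which no such probe set reads, is not analysed here. The mutant group held 3 pools of embryos homozygous for the targeted allele Dll3tm1Rbe, also written Dll3neo, on a C57BL/6 strain, and the wild-type group held 3 pools of wild-type C57BL/6 embryos. All embryos were at 9.5 days post coitum, and each pool was hybridised to 1 Affymetrix MOE430A array. The tissue was the tail end of the embryo behind the newest somite, with the allantois removed, and it contained all germ layers. How many embryos made up a pool is not stated in the labels.

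Eph receptors are tyrosine kinases that bind ephrins tethered to the surface of a neighbouring cell. A-class ephrins are held by a lipid anchor and B-class ephrins span the membrane, and contact can signal into both cells, often making them round up or pull apart. In the mouse presomitic mesoderm, Epha4 is known from the front edge where the next somite boundary forms, and Efnb2 from the posterior part of forming somites. Mesp2, a transcription factor downstream of Notch signalling, is known to activate Epha4 there. Dll3 is a Notch family ligand active in the oscillator that times somite formation, and the comparison asked which genes of this tissue depend on it.

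Each deposited value expresses a probe set relative to its middle value across the 6 arrays and gives no abundance. A ratio of 1 is thus the middle of the 6 pools, and neither the presence of a tissue nor the order of abundance of 2 genes can be read from it. Some probe sets have a median below 1, which appears to mark signals under a floor that took the place of the median. Dll3 itself had ratios of 0.480, 0.476 and 0.537 in mutant pools 1, 2 and 3, against 1.46, 1.63 and 2.01 in wild-type pools 1, 2 and 3. It was the 1 probe set, 0.00442% of all tested, that passed limma at an adjusted p of 0.05 (log2 difference -1.76, SE 0.14, adjusted p = 0.00691). Leaving out wild-type pool 2 or any 1 mutant pool ended the call (adjusted p from 0.0627 to 0.0924), while the log2 difference stayed between -1.82 and -1.73. Heart muscle markers were high in mutant pool 1, with a median log2 ratio of 2.13 over 8 genes, against -0.29 to 0.01 in the other 5 pools. Wild-type pool 3 had the widest spread of log2 ratios over all probe sets (SD 0.303, against 0.166 to 0.234 in the other 5 pools). It was the highest pool at 34.0% of all probe sets and the lowest at 29.3%.

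To show the regulatory sequence beside the expression values, the stretch before the start site was searched for the core TGGGAA, which the Notch effector RBPJ recognises, and for the core AGGTGT, which T-box factors such as Tbx6 recognise. RefSeq windows running from 250 bases before to 50 after the start site (GRCm38.p6) were read on both strands, and all 10 genes had at least 1 window. TGGGAA was found before 3 of the 10 genes, Epha4, Epha7 and Efnb1, and it occurs in 25.6% of all 32851 windows of that length. AGGTGT was found before 0 of the 10 genes and occurs in 13.7% of all windows. The motifs do not overlap in letters, and a match is a description of the sequence and not a binding site. The stretches that hold TGGGAA are given 5′ to 3′ along the gene, with the motif in capitals. They lie at chr1:77515243-77515328 on the minus strand for Epha4, at chr4:28812998-28813083 on the plus strand for Epha7 and at chrX:99135824-99135938 on the plus strand for Efnb1.
Epha4: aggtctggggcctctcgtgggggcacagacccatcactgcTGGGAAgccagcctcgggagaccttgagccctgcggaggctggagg
Epha7: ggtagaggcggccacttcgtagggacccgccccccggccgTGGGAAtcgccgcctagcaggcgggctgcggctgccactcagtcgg
Efnb1: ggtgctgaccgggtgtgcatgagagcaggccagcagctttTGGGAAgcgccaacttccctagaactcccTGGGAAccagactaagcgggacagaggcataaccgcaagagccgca
Counted from the start site, with -1 the base before it, the motif begins at -200 for Epha4, at -93 or -107 for the 2 annotated starts of Epha7, and at -197 and -168 for Efnb1.

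None of the 22 Eph and ephrin probe sets passed the genotype test, and each had a limma adjusted p of 0.9999. At an unadjusted p under 0.05 the count was also 0 of 22, where 1.16% of all probe sets reached that level. By sign, 11 of the 22 were lower in the mutant and 11 were higher, beside 50.9% lower among all probe sets. The median log2 difference over the 9 genes, each taken as the mean of its probe sets, was -0.06, and it was 0.0028 over all 12393 named genes. The 95% interval of the difference lay within a 2-fold change in either direction for 22 of 22 member probe sets, and within 1.5-fold for 20 of 22. Those intervals are for single probe sets and are not adjusted for their number. Of the 22, 5 had a median below 1, apparently under the floor. Whether the intervals of these 5 bound a change in the transcript was not tested. Over all probe sets, 99.3% had an interval within 2-fold and 91.2% within 1.5-fold. Because these are whole-tissue RNA pools, fewer cells of a type and less RNA per cell cannot be told apart in any value given here.

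**Figure D1:**
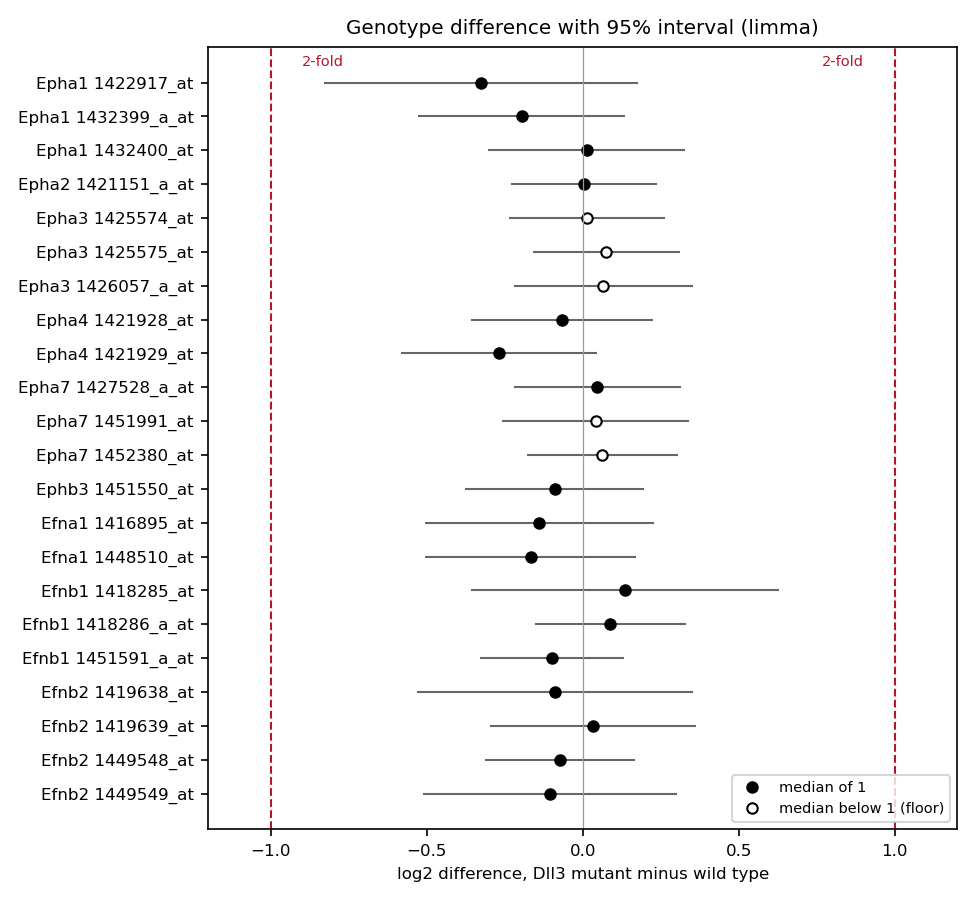
Log2 difference (Dll3 mutant minus wild type, x axis) for the 22 probe sets of 9 Eph receptor and ephrin genes, with limma 95% intervals as bars, 3 pools per genotype. Open circles have a median below 1, the dashed lines mark a 2-fold change, and every interval stays inside them and includes 0.

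Epha4 had the lowest p of the family members. Its probe set 1421929_at had ratios of 0.866, 1.03 and 0.947 in mutant pools 1, 2 and 3, against 1.15, 0.969 and 1.33 in wild-type pools 1, 2 and 3. The wild-type pools 1 and 3 stood above all mutant pools, while wild-type pool 2 lay among them, so the genotypes overlapped. The mean ratio was 0.948 ± 0.0825 in the mutant and 1.15 ± 0.180 in the wild type (SD, n = 3 each), a log2 difference of -0.27 (SE 0.14, 95% interval -0.58 to 0.05, limma unadjusted p = 0.0866, adjusted p = 0.9999). Leaving out 1 pool at a time moved this difference between -0.38 (without wild-type pool 2) and -0.16 (without wild-type pool 3). The other Epha4 probe set, 1421928_at, read 1.10, 1.01 and 0.976 in mutant pools 1, 2 and 3, against 1.26, 0.992 and 0.992 in wild-type pools 1, 2 and 3. Here wild-type pool 1 alone was high, and the log2 difference was -0.07 with that pool and 0.05 without it. The 2 probe sets shared the high wild-type pool 1 and differed in wild-type pool 3, with a Pearson r of 0.0903 over the 6 pools.

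Epha1, the founding member of the receptor family and known from epithelia, had the largest difference and the widest range among the member probe sets. For 1422917_at the ratios were 0.970, 0.548 and 1.03 in mutant pools 1, 2 and 3, against 1.13, 0.903 and 1.05 in wild-type pools 1, 2 and 3. The low value in mutant pool 2 made the difference: it was -0.33 on the log2 scale (SE 0.22, limma adjusted p = 0.9999) and -0.04 without that pool. The probe set 1432399_a_at read 0.994, 0.816 and 1.05 in mutant pools 1, 2 and 3, against 1.29, 1.01 and 0.992 in wild-type pools 1, 2 and 3. Of this gene's probe sets, 1432400_at had a log2 difference of 0.01, with 1.03, 0.888 and 1.14 in the mutant pools, against 1.16, 0.968 and 0.902 in the wild-type pools. All 3 Epha1 probe sets were lowest in mutant pool 2 and highest in wild-type pool 1, and their pairwise r over the 6 pools ran from 0.640 to 0.850. Surface ectoderm markers had a median log2 ratio of -0.14, 0.05 and 0.0018 in mutant pools 1, 2 and 3, against -0.0031, -0.0073 and 0.08 in wild-type pools 1, 2 and 3. Gut and visceral endoderm markers had 0.02, -0.02 and -0.08 in mutant pools 1, 2 and 3, against -0.21, 0.0038 and 0.0086 in wild-type pools 1, 2 and 3. Of the probe sets for these endoderm markers, 5 of 18 (27.8%) were under the floor, beside 7.25% of all probe sets. The part of either tissue in the Epha1 values was not tested.

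The probe sets whose profile over the 6 pools was most like that of Epha1 1422917_at were those of Tspan5 (Pearson r = 0.995), Mbtps1 (r = 0.994) and Polr3d (r = 0.992). In all, 111 of 20377 probe sets of other genes (0.545%) had an r above 0.95 with it over the 6 pools.

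The remaining A-class receptors had log2 differences of at most 0.08 in size. Epha2, known from the primitive streak and the tail end of the early embryo, had ratios of 1.05, 0.952 and 1.01 in mutant pools 1, 2 and 3, against 1.03, 0.992 and 0.976 in wild-type pools 1, 2 and 3. Its range over the pools was narrower than that of 97.9% of all probe sets, with a log2 difference of 0.0050 and a 95% interval of -0.23 to 0.24. Epha3 and Epha7, receptors known for guiding axons through ephrin-A contacts, were read by 3 probe sets each. The Epha3 differences ran from 0.01 to 0.08 on the log2 scale and those of Epha7 from 0.04 to 0.06, all higher by sign in the mutant and all with overlapping genotypes.

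Both genes had probe sets under the floor. All 3 Epha3 probe sets had medians below 1 (0.958, 0.562 and 0.895), as did 2 of 3 for Epha7, both at 0.608. That is 5 of the 22 member probe sets, or 22.7%, beside 7.25% of all probe sets. The Epha3 probe set 1425575_at read 0.568, 0.613 and 0.561 in mutant pools 1, 2 and 3, against 0.564, 0.529 and 0.559 in wild-type pools 1, 2 and 3. Its values span a narrow band in both genotypes. The 1 Epha7 probe set with a median of 1, 1427528_a_at, read 0.994, 1.10 and 1.01 in mutant pools 1, 2 and 3, against 0.908, 1.12 and 0.980 in wild-type pools 1, 2 and 3, and its genotypes overlapped.

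Ephb3, the 1 B-class receptor measured among the 10 genes, is known to bind the transmembrane ephrins. Its single probe set read 0.848, 1.10 and 0.936 in mutant pools 1, 2 and 3, against 0.948, 1.05 and 1.06 in wild-type pools 1, 2 and 3. The mutant pools lay on both sides of the wild-type pools, with a difference of -0.09 on the log2 scale (SE 0.13, adjusted p = 0.9999 in limma). Without mutant pool 1 the difference was -0.0035, and without mutant pool 2 it was -0.19.

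Efna1, a lipid-anchored ligand of the A-class receptors, was lower by sign at both of its probe sets. At 1416895_at it had 0.867, 1.02 and 0.997 in mutant pools 1, 2 and 3, against 0.875, 1.003 and 1.35 in wild-type pools 1, 2 and 3. At 1448510_at it had 0.800, 0.901 and 1.15 in mutant pools 1, 2 and 3, against 0.987, 1.01 and 1.17 in wild-type pools 1, 2 and 3. Wild-type pool 3 was the highest pool and mutant pool 1 the lowest at both, and the genotypes overlapped. The log2 differences were -0.14 (SE 0.16) and -0.17 (SE 0.15), and without wild-type pool 3 they were 0.04 and -0.09.

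Efnb1, an X-linked B-class ligand needed for normal skeletal patterning, had 3 probe sets, 1 lower and 2 higher by sign. The probe set 1451591_a_at was the 1 of 22 whose genotypes did not overlap, beside 5.03% of all probe sets: 0.977, 0.986 and 0.922 in mutant pools 1, 2 and 3, against 1.01, 1.04 and 1.03 in wild-type pools 1, 2 and 3. The gap was small, a log2 difference of -0.10 (SE 0.10, limma adjusted p = 0.9999). In contrast, 1418286_a_at had a difference of 0.09 (SE 0.11), and its r with 1451591_a_at was -0.767 over the 6 pools. The third, 1418285_at, read 0.824, 1.58 and 1.01 in mutant pools 1, 2 and 3, against 0.881, 0.988 and 1.14 in wild-type pools 1, 2 and 3. Its difference was 0.14 with mutant pool 2 and -0.13 without it.

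Efnb2, the ligand of the posterior somite and of arteries, was read by 4 probe sets with log2 differences of -0.10 to 0.03, and all overlapped between genotypes. The least variable, 1449548_at, read 1.03, 0.940 and 0.927 in mutant pools 1, 2 and 3, against 1.04, 1.03 and 0.971 in wild-type pools 1, 2 and 3. The widest, 1419638_at, had 1.13, 1.09 and 0.648 in mutant pools 1, 2 and 3, against 0.961, 1.01 and 0.992 in wild-type pools 1, 2 and 3. There mutant pool 3 alone was low, and the log2 difference was -0.09 with it and 0.17 without it. At 1449549_at mutant pool 2 alone was low, at 0.695, and the difference was -0.10 with it and 0.09 without it.

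**Figure D2:**
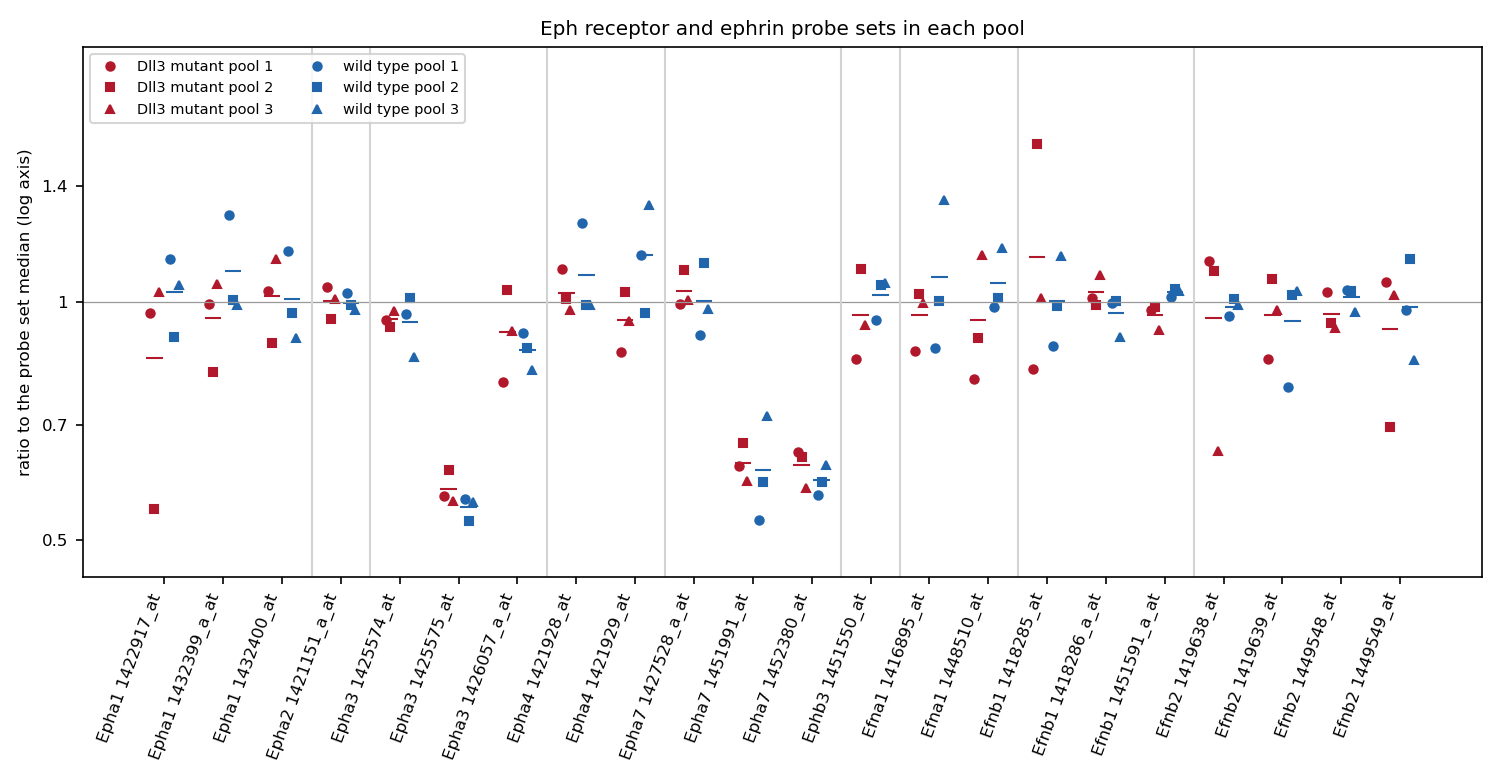
Ratio to the probe set median (y axis, log scale) of each Eph receptor and ephrin probe set in the 3 Dll3 mutant pools (red, left of each pair) and the 3 wild-type pools (blue, right), with short bars at the genotype means. Single mutant pools stand apart at Epha1 1422917_at (0.548), Efnb1 1418285_at (1.58) and Efnb2 1419638_at (0.648), and the genotypes overlap at all but Efnb1 1451591_a_at.

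The most extreme values of the B-class ligands can be set beside the other probe sets of the same gene. When Efnb1 1418285_at stood at 1.58 in mutant pool 2, the other Efnb1 probe sets read 0.992 and 0.986 there. When Efnb2 1419638_at stood at 0.648 in mutant pool 3, the other Efnb2 probe sets read 0.978, 0.927 and 1.02, of which 0.927 was also the lowest of 6 pools for 1449548_at (r = 0.526 with 1419638_at). Over the 20 pairs of probe sets that read the same member gene, 13 had an r above 0 (65.0%, median r 0.273), beside 68.7% and a median r of 0.328 over all 12821 such pairs on the array. These r are descriptions over 6 pools that share the arrays. The spread within a genotype was a median of 0.16 on the log2 scale for the member probe sets and 0.16 for all probe sets.

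**Figure D3:**
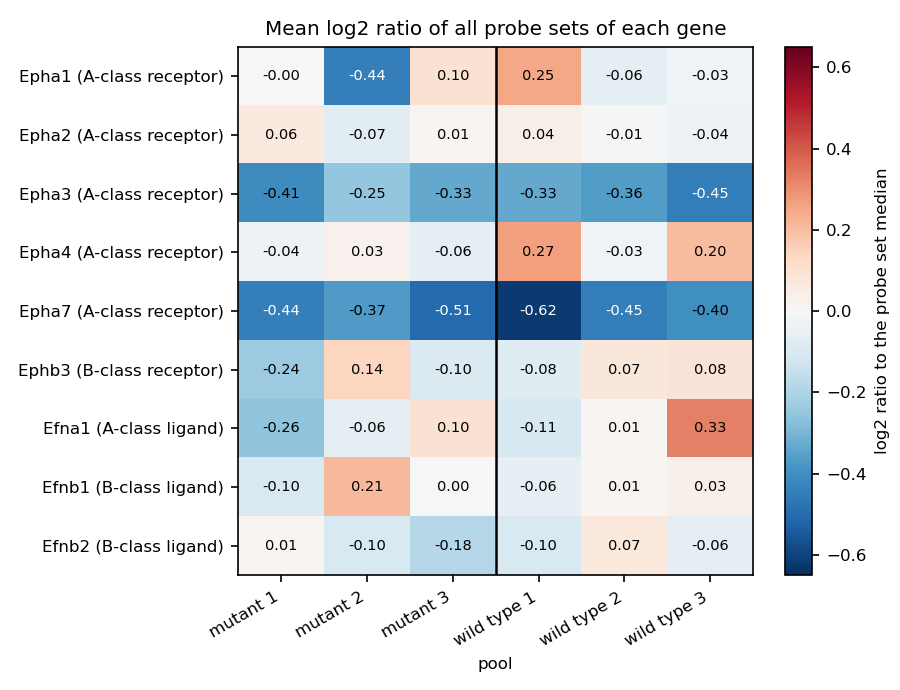
Mean log2 ratio over all probe sets of each of the 9 genes (rows) in each pool (columns, Dll3 mutant left and wild type right), with colour giving the sign and size. Epha3 and Epha7 are below 0 in all pools through their probe sets under the floor, Epha1 stands at -0.44 in mutant pool 2, and Efna1 at 0.33 in wild-type pool 3.

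Set by class, the gene medians of A and B were both just under 0, and the difference between classes was not tested. The A-class genes, receptors and ligand together, had a median log2 difference of -0.07, with 3 of 6 lower and 3 higher by sign. That median falls in a gap between Efna1 (-0.15) and Epha2 (0.0050). Over the 14 A-class probe sets the median was 0.0087, with 6 lower and 8 higher. The A-class receptors alone had a gene median of 0.0050, with 2 of 5 lower. The 3 measured B-class genes had a median of -0.06, with 2 lower and 1 higher. Over their 8 probe sets the median was -0.08, with 5 lower and 3 higher. In mutant pools 1, 2 and 3 the A-class median log2 ratio was -0.15, -0.16 and -0.02, against -0.03, -0.05 and -0.03 in wild-type pools 1, 2 and 3. These A-class medians include Epha3 and Epha7, which are below 0 in all pools through their probe sets under the floor. The B-class median was -0.10, 0.14 and -0.10 in mutant pools 1, 2 and 3, against -0.08, 0.07 and 0.03 in wild-type pools 1, 2 and 3. The genotypes overlapped in both classes. Taken by role, 3 of 6 receptor genes were lower with a median of -0.04, and 2 of 3 ligand genes with a median of -0.06.

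Of the 12 other genes of the family, 10 were measured, 5 with a negative and 5 with a positive difference, and 0 of their 11 probe sets passed limma over all probe sets, with 1 (9.09%, beside 1.16% of all probe sets) at an unadjusted p under 0.05. That was Efnb3, a B-class ligand known from the midline of the neural tube. It had ratios of 1.06, 1.30 and 0.992 in mutant pools 1, 2 and 3, against 0.840, 1.01 and 0.747 in wild-type pools 1, 2 and 3. Mutant pools 1 and 2 stood above all wild-type pools, and mutant pool 3 lay just under wild-type pool 2. The log2 difference was 0.37 (SE 0.15, limma unadjusted p = 0.0350, adjusted p = 0.9999), and it was 0.26 to 0.49 when 1 pool was left out. Neural tube markers had a median log2 ratio of 0.02, 0.15 and -0.01 in mutant pools 1, 2 and 3, against -0.02, -0.06 and 0.06 in wild-type pools 1, 2 and 3, with 5 of 9 genes higher. Their median difference was 0.10, and -0.04 without wild-type pool 1. Their part in the Efnb3 value was not tested.

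Ephb6, a B-class receptor whose kinase domain is inactive, was the 1 other gene without overlap. That is 1 of these 11 probe sets (9.09%), beside 5.03% of all probe sets. Ephb6 had ratios of 0.944, 0.937 and 0.992 in mutant pools 1, 2 and 3, against 1.01, 1.17 and 1.03 in wild-type pools 1, 2 and 3. Its log2 difference was -0.16 (SE 0.11, limma adjusted p = 0.9999). Other receptors had -0.21 and -0.07 for the probe sets of Epha5, 0.08 for Epha6, 0.14 for Epha8 and 0.08 for Ephb4. The A-class ligands had -0.05 for Efna2, -0.13 for Efna3, 0.02 for Efna4 and -0.07 for Efna5. Leaving out 1 pool moved the difference by over 1.5 times for 9 of these 10 genes, Efnb3 being the exception. It turned the sign for 4, to -0.17 for Epha6 and -0.01 for Epha8 without wild-type pool 3, to 0.02 for Efna2 without wild-type pool 2 and to -0.11 for Efna4 without mutant pool 3. Of the single Epha5 probe sets, 1437920_at also turned, to 0.03 without wild-type pool 3. Epha10 and Ephb1 are not analysed here.

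Genes that carry the Eph signal inside the cell were read from a list of kinases, adaptors, GTPases and the ephrin sheddase Adam10. Of 48 listed symbols 38 were measured, and 0 of their 93 probe sets passed limma, with 1 (1.08%, beside 1.16% of all probe sets) at an unadjusted p under 0.05, for the phosphatase Ptpn11. By sign 29 genes were lower and 9 higher, beside 6055 lower and 6338 higher among all named genes, and the median log2 difference was -0.04, or 0.0048 without wild-type pool 3. The lowest were the adaptors Grb10 (-0.56) and Grb7 (-0.26), and the highest were the kinase Abl1 (0.15) and the scaffold Grip1 (0.11). Grb10 was low in mutant pool 2 alone, where its mean log2 ratio was -1.80, against -0.01 to 0.22 in the other mutant pools and -0.10 to 0.17 in the wild-type pools. These are means over 3 probe sets, whose own differences ran from -1.30 to -0.0047. Without mutant pool 2 the Grb10 difference was 0.08. Without mutant pool 1 that of Grb7 was 0.01, and without wild-type pool 1 those of Abl1 and Grip1 were 0.08 and 0.0052. The sign turned for 25 of the 38 genes when 1 pool or another was left out. The list median was -0.02, -0.05 and 2.00e-04 in mutant pools 1, 2 and 3, against -0.05, -0.0052 and 0.12 in wild-type pools 1, 2 and 3, so the genotypes overlapped and wild-type pool 3 stood highest. That pool was also the highest at 34.0% and the lowest at 29.3% of all probe sets.

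The genes that place the segment boundary, beside which Eph signalling acts, gave 20 measured of 22 listed, with 13 lower and 7 higher by sign. None of their 26 probe sets passed limma, and 4 (15.4%, beside 1.16% of all probe sets) reached an unadjusted p under 0.05, 1 each for Hes7, Tbx6, Uncx and Itga5. The genotypes did not overlap at 4 probe sets (15.4%, beside 5.03% of all), 1 each for Hes7, Tbx6, Lfng and Itga5, with the mutant below for the first 3 and above for Itga5. Mesp2, the known activator of Epha4, had a mean log2 ratio of -0.15, 0.19 and -0.25 in mutant pools 1, 2 and 3, against -0.03, 0.03 and 0.34 in wild-type pools 1, 2 and 3. Its genotypes overlapped, with a log2 difference of -0.18, beside -0.17 for the mean of the Epha4 probe sets. That Epha4 mean was -0.04, 0.03 and -0.06 in mutant pools 1, 2 and 3, against 0.27, -0.03 and 0.20 in wild-type pools 1, 2 and 3. A link between the Mesp2 and Epha4 values was not tested. Leaving out wild-type pool 3 gave -0.07 for Mesp2, and leaving out mutant pool 2 gave -0.32. Among regulators the difference was -0.43 for Hes7, -0.39 for Tbx6, -0.27 for Lfng, -0.15 for Dll1, -0.08 for Notch1 and 0.0011 for Mesp1. Somite genes had 0.35 for Uncx, 0.35 for Meox1, 0.20 for Tbx18, 0.11 for Tcf15, -0.03 for Foxc1 and -0.04 for Foxc2. Adhesion genes and their regulators had 0.23 for Pcdh8, 0.23 for Itga5, -0.09 for Cdh2, -0.11 for Cdh11, -0.11 for Fn1, -0.04 for Snai1 and -0.11 for Snai2. Leaving out 1 pool moved 16 of the 20 differences by over 1.5 times, all but those of Hes7, Tbx6, Lfng and Uncx, and turned the sign of 8. Without wild-type pool 3 the difference was 0.10 for Cdh11, 0.09 for Fn1, 0.03 for Cdh2, 0.03 for Snai2 and 0.15 for Foxc1. The sign also turned for Foxc2 (0.09) and Mesp1 (-0.11) without mutant pool 3, and for Snai1 (0.0098) without mutant pool 1. Without wild-type pool 1 the difference was 0.04 for Pcdh8 and 0.0012 for Tcf15. The list median was -0.06, and 0.03 without wild-type pool 3.

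Of the tissue's own markers, the presomitic list had a median log2 difference of -0.27 and the formed somite list 0.13, beside -0.06 for the Eph and ephrin genes, and these were not tested against each other. These lists are not independent of the segment boundary list: 4 of the 5 presomitic markers (Tbx6, Dll1, Hes7 and Lfng, beside Msgn1) and 3 of the 6 formed somite markers (Meox1, Tcf15 and Uncx) are in both, and Dll1, Hes7 and Lfng are themselves Notch pathway genes. Presomitic markers were lower by sign for 5 of 5 measured genes, with list medians of -0.23, -0.28 and -0.03 in mutant pools 1, 2 and 3, against 0.12, 0.03 and 0.12 in wild-type pools 1, 2 and 3. Formed somite markers were higher by sign for 6 of 6 genes, with medians of 0.0012, 0.23 and -0.08 in mutant pools 1, 2 and 3, against -0.35, 0.04 and -0.22 in wild-type pools 1, 2 and 3. Endothelium markers, a tissue where Efnb2 is also made, were higher for 7 of 8 genes, with medians of 0.02, 0.17 and -0.03 in mutant pools 1, 2 and 3, against -0.06, -0.0053 and -0.06 in wild-type pools 1, 2 and 3. Over the same pools the mean log2 ratio of the Efnb2 probe sets was 0.01, -0.10 and -0.18 in mutant pools 1, 2 and 3, against -0.10, 0.07 and -0.06 in wild-type pools 1, 2 and 3. Without 1 pool the median difference ran from -0.36 to -0.24 for the presomitic list, from 0.03 to 0.19 for the formed somite list and from 0.04 to 0.18 for endothelium. The part of the tissue mix in the Eph and ephrin values was not tested.

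**Figure D4:**
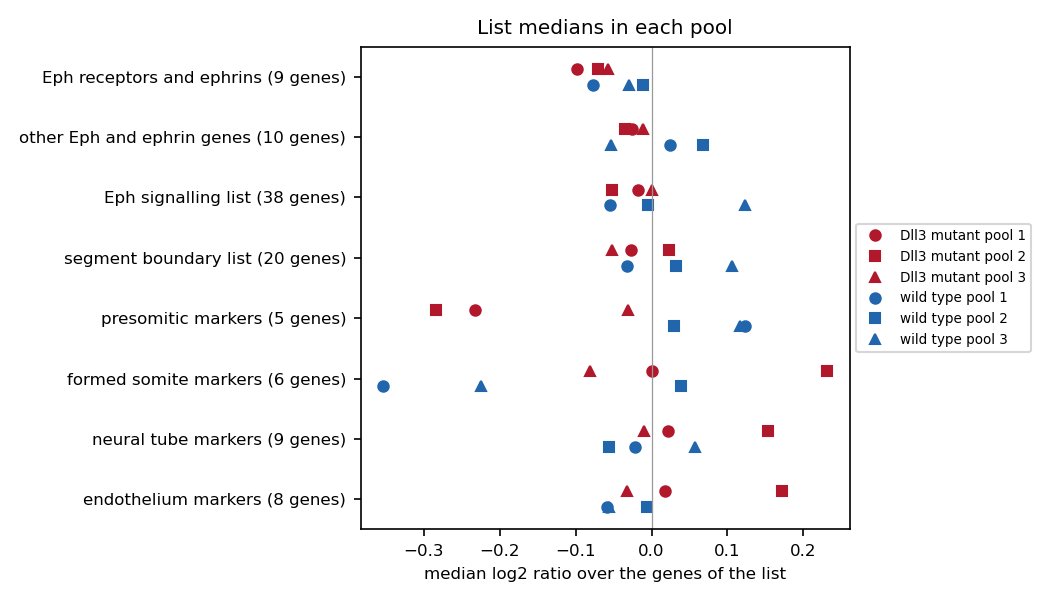
Median log2 ratio over the measured genes of each list (x axis) in the 3 Dll3 mutant pools (red, upper row) and the 3 wild-type pools (blue, lower row). The Eph and ephrin medians lie between -0.10 and -0.01 in all 6 pools, and include Epha3 and Epha7, below 0 through probe sets under the floor. The presomitic list medians do not overlap, from -0.28 to -0.03 in the mutant and from 0.03 to 0.12 in the wild type. Single genes can overlap, as Dll1 does (0.17 in mutant pool 3, against -0.08 to 0.12 in the wild type). Of the 5 presomitic genes, 4 are also in the segment boundary list, and lists were chosen with earlier results of these data known.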

How the data were processed

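The authors deposited linear ratios for 22690 probe sets on 6 arrays. The values themselves show a division by the probe set median, which is 1 within 0.0011 for 92.8% of non-control probe sets and lower for 1640, apparently through a floor. Per the submitters' processing notes, RMA and MAS5 were involved in an unstated way, so background and between-array normalization stay unknown, and the number of arrays limits the precision. The 64 control probe sets were left out. Symbols came from the platform annotation (20380 probe sets with 1 symbol, 691 with several, 1555 unnamed here), updated through RefSeq (GRCm38.p6). Log2 ratios without an offset were tested for genotype with limma 3.58.1 in R 4.3.3 (lmFit, eBayes, two-sided), adjusted by Benjamini-Hochberg over all 22626 probe sets, threshold 0.05. The test was run on simulated data first. An exact permutation test of 3 against 3 pools cannot go below 0.10, so none was used. Named genes were all members, all other family and segment boundary genes, the 2 highest and 2 lowest signalling genes, and the 3 probe sets most like the widest-ranging member. Members and lists were chosen with earlier results of these data known. Alternatives were quantile normalization, median centring, an offset of 1, leaving out probe sets under the floor, robust variances, array weights, a replicate block and leaving out each pool. For genes outside the 10 and for list medians, these were added after the data were seen. Plots used matplotlib 3.10.9.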

Additional observations from a re-analysis of the deposited data

How the results depend on the processing

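The count of Eph and ephrin probe sets past the threshold was 0 under all 13 alternatives run. At most 1 of 22 reached a limma unadjusted p under 0.05, with array weights and without wild-type pool 2. Of all 22626 probe sets, 3641 did so with array weights and 216 without wild-type pool 2. Over all probe sets the count past the threshold was 1 in the fit reported, 2 with quantile normalization, 4 with array weights, and 0 to 1 when a pool was left out. The median log2 difference over the 9 genes was -0.025 on log2(value + 1), 0.0045 with array weights, -0.089 when each gene was read by its widest-ranging probe set, and from -0.070 to -0.0087 without 1 pool. The array weights rest on wild-type pool 2 (weight 83.9, against 0.137 to 0.756 for the others), and their estimation stopped before it converged. The sign held under all alternatives for 10 of the 22 probe sets and turned at least once for 12; the cause was not tested. With quantile normalization it turned for Epha1 1432400_at (-6.79e-05), Epha2 (-0.0075) and Epha3 1425574_at (-0.050), and with array weights for Epha3 1425574_at (-0.093), Epha4 1421928_at (0.042), Epha7 1427528_a_at (-0.11) and Efnb2 1419639_at (-0.068). The other turns came from leaving out 1 pool, with differences from -0.070 to 0.12 for Epha1 1432400_at, -0.027 to 0.041 for Epha2, -0.058 to 0.066 for Epha3 1425574_at, -0.028 to 0.17 for Epha3 1426057_a_at, -0.12 to 0.050 for Epha4 1421928_at, -0.022 to 0.13 for Epha7 1427528_a_at, -0.059 to 0.16 for Epha7 1451991_at, -0.28 to 0.035 for Efna1 1416895_at, -0.13 to 0.34 for Efnb1 1418285_at, and for Efnb2 -0.23 to 0.17 (1419638_at), -0.098 to 0.12 (1419639_at) and -0.21 to 0.089 (1449549_at). Counts of probe sets lower by sign, read under these settings after the data were seen, ran from 11 to 14 of 22, and 11 of 17 without those under the floor. Whether shared replicate numbers mark paired pools was not settled. The r of deviations was 0.209, 0.0172 and 0.175 for same-numbered pools, against -0.207 to 0.0825 for differently numbered pools. The replicate block left the counts past the threshold at 1 over all probe sets and 0 among the members. At a limma unadjusted p under 0.05 the block gave 434 of all probe sets, against 262 in the fit reported, and 0 members.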
